A study of Mus musculus with 6 samples.

Results

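This section describes 5 genes that were among the largest falls in fibroblasts of K14-PTHrP (KrP) skin and are best known from epithelia, lung or endothelium: Adgrg2, Cyp2f2, Gprc5a, Tmem204 and Apold1. They were picked from 22180 named genes for the size of their fall in these same 6 arrays, so their KrP and WT values are given as a description and carry no test. The 3 KrP samples came from the nipple-like ventral skin of female mice that carry a transgene for parathyroid hormone-related protein (PTHrP) under the keratin 14 promoter, and the 3 WT samples from the ventral skin of their wild-type female littermates. All animals were 8 to 12 weeks old and on a C57BL/6 background, and the WT skin is labelled as telogen, the resting phase of the hair cycle. The promoter is active in basal keratinocytes, so the fibroblasts measured here are neighbours of the cells that make the hormone. Cells were pooled and sorted as viable, CD140 positive and CD31, CD45, CD117 and CD49f negative, and each sample was measured on 1 array. The labels name 3 mice as the source of cells without saying whether that is per sample or per genotype, so the spread between samples may be partly technical. For KrP 2 and KrP 3 the description field names K15 and K16 in place of K14, while their source names and genotypes read K14.

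PTHrP is a paracrine signal that in embryonic mammary skin instructs the underlying mesenchyme, and its forced expression in the epidermis turns ventral skin nipple-like. Each of the 5 genes is usually discussed outside the dermis. Adgrg2 is an adhesion G protein-coupled receptor of the epithelium lining the efferent ducts and epididymis, where it takes part in fluid handling. Cyp2f2 is a cytochrome P450 of mouse airway club cells that converts inhaled aromatics such as naphthalene into reactive products. Gprc5a is an orphan receptor first found as a gene induced by retinoic acid and is abundant in lung epithelium, where its loss in mice leads to tumours. Tmem204 is a claudin-like membrane protein of endothelial junctions, and Apold1 is an endothelial gene induced early by stress and ischaemia.

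Levels are log2 values per probe set, so a difference of 1 is a 2-fold change. Probe sets differ in how strongly they bind, so no gene's level is set against another's. As a rough guide to background, 1105 olfactory receptor genes, a family of sensory neurons, had a 95th percentile of 6.28. The sorted cells carried the marker of their gate, Pdgfra (CD140a). It had 13.47 ± 0.06 in KrP and 13.23 ± 0.10 in WT samples (SD, n = 3 each, limma adjusted p = 0.144). Itga6, which encodes the excluded CD49f, had 6.49, 8.16 and 8.01 in KrP samples, against 7.16, 7.91 and 7.16 in WT samples. Its values all lay above 6.28 (limma adjusted p = 0.9175). Kit, which encodes the excluded CD117, had 6.18 ± 0.04 in KrP and 6.23 ± 0.27 in WT samples (0.928). Correlations between arrays over all probe sets were 0.986 to 0.994 within groups and 0.976 to 0.989 across them. KrP 2 stood nearest to KrP 3 (0.992), and nearer to all 3 WT arrays (0.989) than to KrP 1 (0.986). The lowest value, 0.976, was that of KrP 1 with WT 2. Results that lean on KrP 2 are therefore also given without it.

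The first group of members are receptors. Adgrg2 had log2 values of 6.31, 8.32 and 7.36 in KrP samples 1 to 3, against 10.16, 10.47 and 10.21 in WT samples 1 to 3. The WT samples lay close together and the KrP samples were spread over 2.01 log2 units, with KrP 1 next to the olfactory guide and KrP 2 highest, and the groups did not overlap. The means were 7.33 ± 1.01 in KrP and 10.28 ± 0.17 in WT (SD, n = 3 each), a log2 fold change of -2.95 ± 0.43 (SE), or 7.73-fold lower in KrP. In these pooled bulk samples, fewer cells that express a gene and less RNA per cell cannot be told apart. Gprc5a had 7.56, 7.93 and 7.55 in KrP samples, against 10.65, 10.05 and 10.12 in WT samples. It was the most even of the 5 within KrP, with a range of 0.38, and its groups were 2.12 log2 units apart at their closest. Its log2 fold change was -2.59 ± 0.19 (SE), or 6.03-fold lower in KrP.

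Cyp2f2, the enzyme of the set, had 9.30, 8.07 and 9.39 in KrP samples, against 11.53, 11.46 and 12.30 in WT samples. The log2 fold change was -2.84 ± 0.37 (SE), or 7.18-fold lower in KrP, and the groups were 2.07 apart at their closest. On this probe set its KrP mean stayed 2.64 log2 units above the olfactory guide, which comes from probe sets of other genes. Cyp2f2 was the 1 member with a further probe set of its own, which read 6.66, 6.81 and 6.73 in KrP samples, against 7.27, 7.48 and 7.96 in WT samples. That dimmer probe set was lower in KrP by a log2 fold change of -0.84, or 1.79-fold, again without overlap, and the average of the 2 gave -1.84. The direction was shared by both probe sets while the size was not, and KrP 2 was the lowest KrP sample on the brighter one and the highest on the dimmer one.

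The remaining members are known from endothelium. Tmem204 had 7.36, 8.32 and 7.59 in KrP samples, against 10.54, 10.19 and 10.24 in WT samples, a log2 fold change of -2.57 ± 0.24 (SE), or 5.92-fold lower. WT samples lay within 0.35 of each other and KrP 2 was the highest KrP sample. Apold1 had 6.76, 7.87 and 6.89 in KrP samples, against 9.28, 10.16 and 9.04 in WT samples, a log2 fold change of -2.32 ± 0.36 (SE), or 4.99-fold lower. It had the smallest gap between groups, 1.17, and its samples numbered 2 were the highest in both groups.

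**Figure D1:**
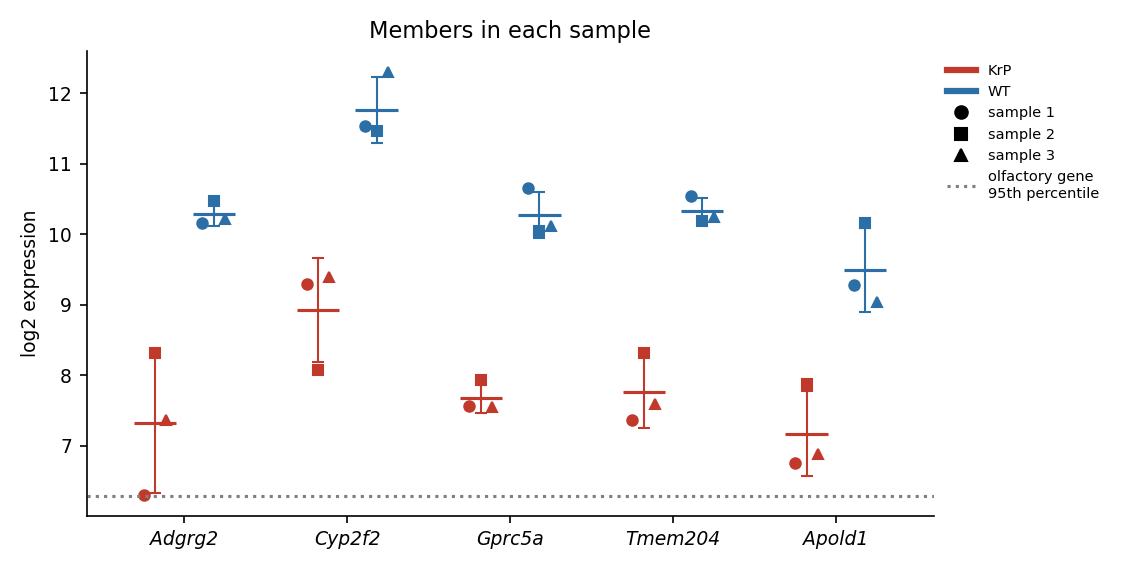
Log2 expression of the 5 genes in each KrP (red, left) and WT (blue, right) sample; horizontal lines are group means, bars are 1 SD (n = 3 each), symbols mark the sample number, and the dotted line is the 95th percentile of olfactory receptor genes. No KrP sample reached the lowest WT sample of the same gene, and the closest approach was 1.17 log2 units, for Apold1.

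None of the 5 genes had overlapping groups, as held for 8.93% of all genes with KrP lower, and all 5 were among the genes called lower by limma at an adjusted p under 0.05, 1.03% of all genes. Both counts follow from how the genes were picked. In the order of falls over all genes they stood at places 3 (Adgrg2), 5 (Cyp2f2), 9 (Gprc5a), 10 (Tmem204) and 16 (Apold1). The picked range had no fixed limit. Just above Apold1 stood Lbp, which encodes a lipopolysaccharide-binding protein, at -2.39, and just below it Tnfsf18, a ligand of the TNF family, at -2.24.

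The start regions of the genes are shown to compare what lies just before them, since these genes were low in the same samples. RefSeq sequences of the 250 bases before the start, build GRCm38.p6, plus strand, were matched for 3 of the 5. Capitals mark matches, on either strand, to any of the following motifs: the cAMP response element TGACGTCA, the AP-1 site TGANTCA, the TATA box TATAAA, the hypoxia response core ACGTG, the nuclear receptor core AGGTCA, the GC box GGGCGG and the CArG box of serum response factor. None of these motifs overlaps another in the sequences shown.
Adgrg2, chrX:160390440-160390689: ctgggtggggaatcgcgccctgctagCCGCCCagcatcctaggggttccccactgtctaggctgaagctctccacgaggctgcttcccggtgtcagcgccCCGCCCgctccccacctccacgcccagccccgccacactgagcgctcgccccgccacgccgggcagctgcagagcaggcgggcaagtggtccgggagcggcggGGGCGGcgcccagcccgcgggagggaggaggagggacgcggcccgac
Cyp2f2, chr7:27119705-27119954: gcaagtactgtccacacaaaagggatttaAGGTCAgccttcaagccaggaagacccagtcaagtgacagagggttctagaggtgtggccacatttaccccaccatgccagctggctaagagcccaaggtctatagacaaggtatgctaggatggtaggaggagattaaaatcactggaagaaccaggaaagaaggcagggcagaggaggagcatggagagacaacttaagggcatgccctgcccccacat
Apold1, chr6:134981751-134982000: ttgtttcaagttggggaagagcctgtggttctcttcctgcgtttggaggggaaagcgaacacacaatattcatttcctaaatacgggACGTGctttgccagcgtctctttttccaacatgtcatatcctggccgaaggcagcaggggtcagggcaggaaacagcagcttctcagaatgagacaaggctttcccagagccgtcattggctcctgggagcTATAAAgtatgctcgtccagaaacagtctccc

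The 3 start regions had no motif of the set in common. That of Adgrg2 was 75.6% G and C and held 3 GC boxes, a motif in 42.9% of 20611 promoter windows of measured genes. That of Apold1 was 50.8% G and C, with a TATA box from base -32 to -27 before the start, found in 11.3% of windows, and the ACGTG core, found in 18.2%. That of Cyp2f2 was 51.6% G and C and held the nuclear receptor core, found in 12.6% of windows. The cAMP response element, AP-1 site and CArG box occurred in 2.0%, 6.37% and 1.3% of windows and in none of the 3 shown. A match is a run of letters and not a measured binding site.

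Apold1 and Gprc5a lie close together on chromosome 6, with Ddx47, an RNA helicase, as the only RefSeq gene that starts between them. Ddx47 had 10.47 ± 0.23 in KrP and 10.45 ± 0.06 in WT samples (SD, n = 3 each), a log2 fold change of 0.01 ± 0.13 (SE; limma adjusted p = 0.978). On the far side of Gprc5a, its relative Gprc5d lay under the olfactory guide, at 5.06 in KrP and 5.02 in WT samples. On the far side of Apold1, the cyclin-dependent kinase inhibitor Cdkn1b had 8.38 ± 0.49 in KrP and 8.01 ± 0.44 in WT samples (limma adjusted p = 0.607). The 2 low genes thus flanked a gene whose difference was close to 0.

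The same held around the other members. Over the 5 nearest measured genes on each side of every member, 41 genes in all beside the members themselves, limma called 0, while 2 higher and 1 lower had an unadjusted p under 0.05 and 1, Sh3kbp1 near Adgrg2, passed with the replicate number as a block (log2 fold change 0.57 ± 0.17, adjusted p = 0.145; blocked, 0.0158). Over all genes, limma called 2.18%, and 8.35% with the block, while 9.44% were higher and 6.56% lower at an unadjusted p under 0.05. The neighbours' log2 fold changes ran from -0.34 to 0.57, with a median of 0.00 against 0.01 over all genes, and 23 of the 41 lay above the olfactory guide. Next to Cyp2f2 on chromosome 7 stood 6 other genes of the Cyp2 family, with log2 fold changes between -0.20 and 0.14. Of these 6, only Cyp2a22 (7.13 in KrP and 7.16 in WT samples) lay above the olfactory guide. Adgrg2 lies on the X chromosome and Tmem204 on chromosome 17.

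**Figure D2:**
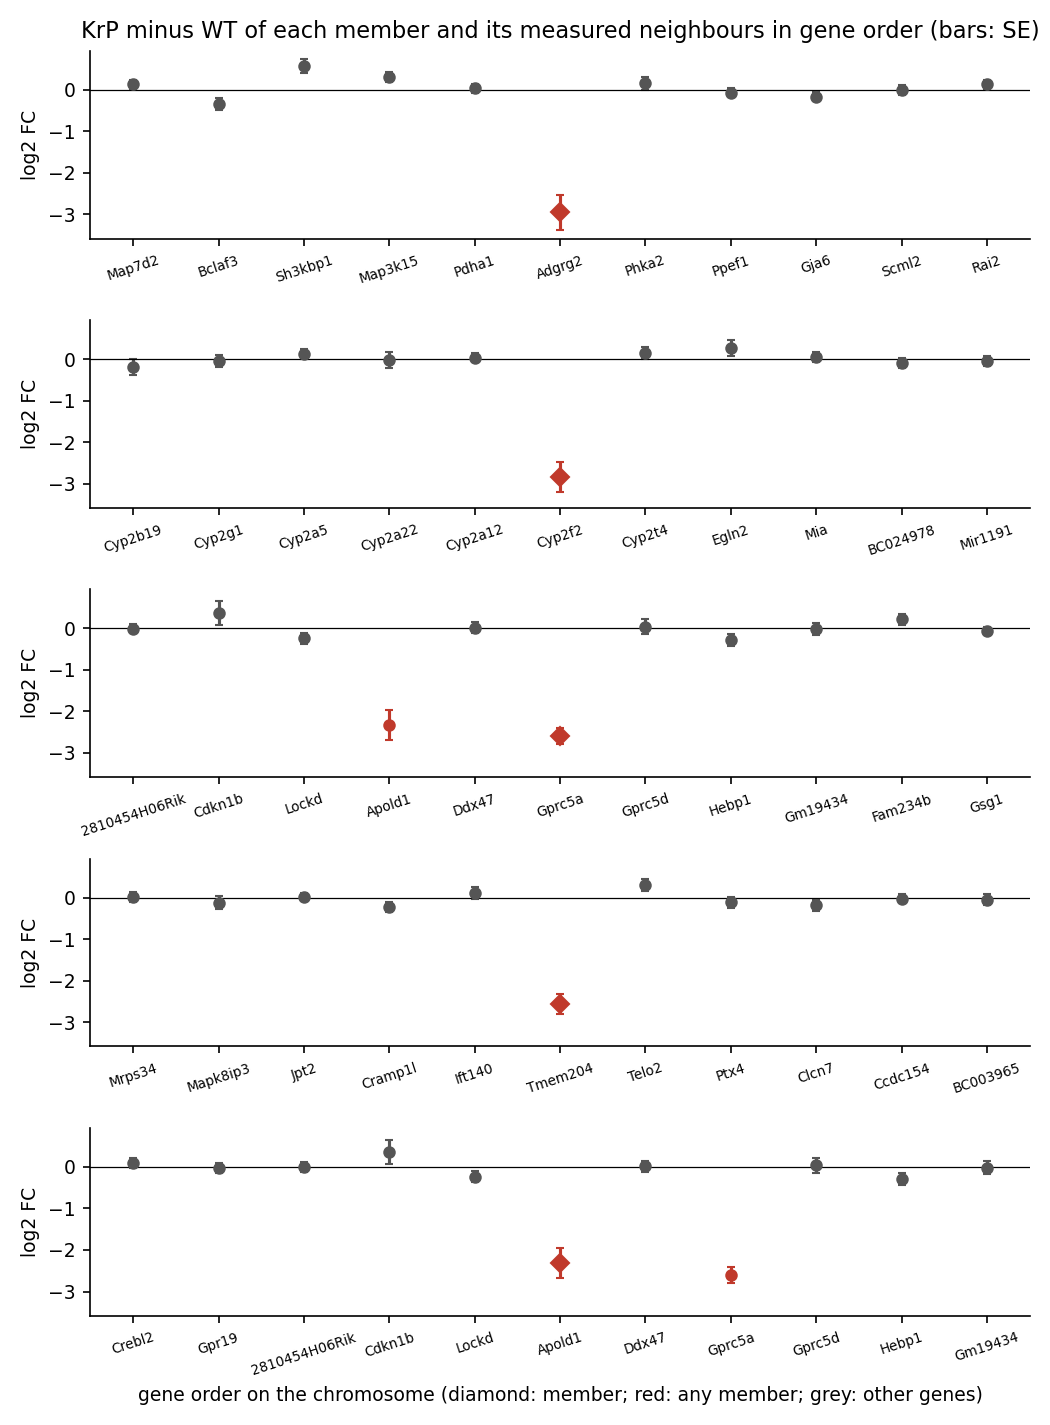
Log2 fold change (KrP minus WT, bars are SE, n = 3 each) of each member (diamond) and the 5 nearest measured genes on each side, in gene order; red marks any of the 5 members. All other genes shown lay between -0.34 and 0.57, and Apold1 and Gprc5a appear on either side of Ddx47 at 0.01.

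Relatives of the 5 genes were read family by family, beside the 2.18% of all genes that limma called. Of 26 other measured adhesion G protein-coupled receptors, 13 lay above the olfactory guide. Limma called 0 of the 26, with 7 higher and 0 lower at an unadjusted p under 0.05. Their median log2 fold change was 0.04. Of the Adgrg genes, Adgrg1 lay next to the olfactory guide, with 6.25 ± 0.06 in KrP and 6.29 ± 0.37 in WT samples. Adgrg6, a receptor needed for Schwann cell myelination, had 6.57 ± 0.16 in KrP and 6.13 ± 0.04 in WT samples. Its WT mean lay under the olfactory guide (log2 fold change 0.45 ± 0.12 SE, limma adjusted p = 0.104). Adgrg3, Adgrg4 and Adgrg7 lay under the olfactory guide in both groups. With the block, where 5.33% of all genes rose and 3.02% fell, 3 receptors rose, the latrophilins Adgrl1 (log2 fold change 0.60, limma adjusted p = 0.0164) and Adgrl2 (0.64, 0.0160) and the brain angiogenesis inhibitor Adgrb1 (0.48, 0.0377), and without KrP 2 Adgrl1 (0.0401) and Adgrf1 (0.0289) rose. All 4 were singled out with their values in view.

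Among 46 other Cyp2 genes, limma called 0 in the fit with and without the block, with 2 higher and 0 lower at an unadjusted p under 0.05. Only 10 of the 46 lay above the olfactory guide, and their log2 fold changes over all 46 ran from -0.33 to 0.40. In the list of xenobiotic metabolism, with 26 measured genes, 3 rose and 0 fell (blocked, 6 and 1; without KrP 2, 6 and 0), where 1.15% of all genes rose and 1.03% fell. Ahr, the receptor for dioxin and other aromatic ligands, had 11.18, 10.87 and 10.98 in KrP samples, against 9.89, 9.67 and 9.95 in WT samples. It rose with a log2 fold change of 1.17 ± 0.13 (SE; limma adjusted p = 0.00545), and its adjusted p stayed between 0.00402 and 0.0477 when each sample was left out. The epoxide hydrolase Ephx1 rose by 0.80 ± 0.15 (adjusted p = 0.0388) and the glutathione transferase Gstp1 by 0.33 ± 0.06 (adjusted p = 0.0445). Both calls ended when KrP 1, KrP 3 or any 1 WT sample was left out, with limma adjusted p from 0.0869 to 0.214 for Ephx1 and from 0.0886 to 0.229 for Gstp1. They also ended with quantile normalisation (0.0565 for Ephx1 and 0.0580 for Gstp1), and that of Gstp1 without the trend (0.146) and with a robust prior (0.0558). Cyp1b1, a P450 that Ahr is known to induce, averaged 7.53 ± 0.13 in KrP and 8.88 ± 0.69 in WT samples (limma adjusted p = 0.0714, or 0.0142 blocked). The Ahr repressor gene Ahrr went the other way, with 7.81 ± 0.60 in KrP and 6.96 ± 0.35 in WT samples. Its groups overlapped (limma adjusted p = 0.210, or 0.0136 blocked). Cyp1b1 and Ahrr were singled out with their values in view.

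Of the relatives of Gprc5a, Gprc5b had 8.49 ± 0.59 in KrP and 8.18 ± 0.36 in WT samples (limma adjusted p = 0.678) and Gprc5c had 6.38 ± 0.23 in KrP and 6.57 ± 0.14 in WT samples (0.593). In the list of 19 measured Gprc5 relatives and genes of retinoid handling and response, 0 rose and 2 fell (blocked, 1 and 3; without KrP 2, 1 and 2). Cyp26b1, which breaks down retinoic acid, had 10.00, 11.20 and 10.26 in KrP samples, against 12.27, 11.92 and 12.11 in WT samples. It fell by 1.61 on the log2 scale (SE 0.28, limma adjusted p = 0.0296), and its call ended without KrP 3 (0.158), WT 1 (0.0944), WT 2 (0.0733) or WT 3 (0.137). Rarres1, a retinoid-responsive membrane protein, had 5.90, 5.86 and 5.94 in KrP samples, all under the olfactory guide, against 6.49, 6.85 and 6.44 in WT samples. It fell by 0.69 (limma adjusted p = 0.0403), a size measured against signal not above background, and its call ended whichever sample was left out (0.0536 to 0.180). With the block, Aldh1a3, an enzyme that makes retinoic acid, rose by 1.58 on the log2 scale (limma adjusted p = 0.00331, against 0.111 unblocked) and the retinol transporter Stra6 fell by 0.99 (0.00903, against 0.0597 unblocked). The retinoic acid receptor Rarb, itself a known retinoid target, had 8.85, 5.99 and 8.01 in KrP samples, against 5.86, 6.28 and 6.21 in WT samples. KrP 2 lay with the WT samples for this gene, and its limma adjusted p was 0.280 with all samples and 0.00412 without KrP 2. Aldh1a3, Stra6 and Rarb were singled out with their values in view.

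For the endothelial members, 2 vascular lists were read. Of 22 measured endothelial markers, 16 of which lay above the olfactory guide, 1 rose and 2 fell (blocked, 1 and 4; without KrP 2, 1 and 1). Most did not pass, and 17 of the 22 had a lower mean in KrP, against 48.57% of all genes, with a median log2 fold change of -0.08; without WT 2, 13 did. The tight junction gene Cldn5 had 6.20, 6.34 and 6.10 in KrP samples, against 7.37, 7.02 and 7.09 in WT samples, and fell by 0.95 on the log2 scale (SE 0.13, limma adjusted p = 0.0130, or 0.0967 without KrP 3 and 0.0630 without WT 3); KrP 1 and KrP 3 lay under the olfactory guide. The angiopoietin receptor Tek fell by 0.76 (limma adjusted p = 0.0386) and lost its call whichever sample was left out (0.0524 to 0.125), and its KrP values lay under the olfactory guide. The VEGF receptor Flt1 rose by 1.07 ± 0.18 (limma adjusted p = 0.0250), a call that ended without KrP 3 (0.129) or without any 1 WT sample (0.0788 to 0.116). Kdr, the main VEGF receptor of endothelium, had 7.76, 6.84 and 7.31 in KrP samples, against 9.28, 8.19 and 8.67 in WT samples (log2 fold change -1.41 ± 0.31 SE, limma adjusted p = 0.0658; blocked, 0.00158). Pecam1, which encodes the CD31 excluded by the gate, had 6.68 ± 0.09 in KrP and 6.73 ± 0.35 in WT samples (0.931), and Cdh5, the cadherin of endothelial junctions, had 8.33 ± 0.27 in KrP and 7.79 ± 0.43 in WT samples (0.304). Neither of these defining endothelial genes passed the test, and their part in the values of Tmem204 and Apold1 was not tested.

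Tmem204 has been tied to VEGF receptor signalling and cell junctions. In a list of 25 measured VEGF pathway and vascular junction genes 3 rose and 2 fell (blocked, 4 and 5; without KrP 2, 4 and 2), with a median log2 fold change of 0.00. Beside Flt1 and Tek, the ligand Vegfd rose by 1.53 ± 0.29 (limma adjusted p = 0.0403), the mesenchymal cadherin Cdh11 rose by 0.59 ± 0.11 (0.0346), and the co-receptor Nrp2 fell by 0.72 (SE 0.13, 0.0336). All 3 calls ended without KrP 3 (0.199 for Vegfd, 0.120 for Cdh11 and 0.0863 for Nrp2) or without any 1 WT sample (0.0558 to 0.164 over the 3 genes), and that of Vegfd also without KrP 1 (0.0594) and of Cdh11 without the trend (0.0657). In the claudin family, of which 23 genes were measured, 11 lay above the olfactory guide. Cldn5 alone fell and 0 rose, also with the block.

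Apold1 is induced early by stress, and Fos and Fosb are well-known genes of that kind. Out of 31 measured immediate early and stress genes, all above the olfactory guide, 0 rose and 1 fell (blocked, 6 and 2, and without KrP 2, 3 and 1). Of the 31, 15 had a lower mean in KrP, and the median log2 fold change was 0.01. The nuclear receptor Nr4a2 fell by 0.68 on the log2 scale (SE 0.12, limma adjusted p = 0.0349), a call that ended without KrP 1 (0.0527), KrP 3 (0.198) or any 1 WT sample (0.0508 to 0.155). Fos had 10.96, 10.13 and 10.28 in KrP samples, against 9.56, 8.47 and 9.29 in WT samples (log2 fold change 1.35 ± 0.31 SE, limma adjusted p = 0.0746; blocked, 0.00407 and 0.0460 without KrP 2). Fosb had a log2 fold change of 1.22 ± 0.31 SE (limma adjusted p = 0.100, or 0.00158 blocked). Jund, also in the list, had 1.12 ± 0.24 SE (0.0591, or 0.00172 blocked). Both were, like Fos, higher in every KrP sample than in any WT sample, as were 11.4% of all genes. Myc, of the same list, went the other way, with a log2 fold change of -0.54 ± 0.19 SE (limma adjusted p = 0.211, or 0.0243 blocked). Fos, Fosb, Jund and Myc were singled out with their values in view. Of 13 genes of the apolipoprotein L family, whose domain Apold1 carries, only 3 lay above the olfactory guide. Limma called 0 of the 13 with or without the block, with 1 higher and 2 lower at an unadjusted p under 0.05.

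Markers of lung and of the male ducts, where Cyp2f2 and Adgrg2 are best known, lay mostly under the olfactory guide. For 17 club cell and lung epithelial markers, of which 4 lay above the olfactory guide, the list's mean level was 5.47 to 5.64 in KrP and 5.53 to 5.63 in WT samples, and limma called 0, also at an unadjusted p under 0.05. Scgb1a1, the defining secretory protein of club cells, had 3.68 ± 0.07 in KrP and 3.73 ± 0.06 in WT samples. For 16 male duct epithelial genes the mean level was 6.07 to 6.24 in KrP and 6.06 to 6.33 in WT samples, with 0 called and 1 lower at an unadjusted p under 0.05. Their part in the values of the members was not tested.

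Keratinocyte and epithelial markers were set apart in 1 sample. The mean level of 24 such genes was 6.23 to 6.39 in KrP samples, against 6.38 in WT 1, 7.24 in WT 2 and 6.36 in WT 3, and limma called 0, also with the block, with 0 higher and 1 lower at an unadjusted p under 0.05. Of the 24, 22 had a lower mean in KrP, with a median log2 fold change of -0.31, and without WT 2 this was 13 with a median of -0.02. The adhesion gene Epcam, a defining marker, had 5.06 ± 0.16 in KrP and 5.45 ± 0.77 in WT samples, and Krt14 had 6.60 ± 0.07 in KrP and 6.96 ± 0.56 in WT samples. WT 2 was the lowest WT sample for Gprc5a, Tmem204 and Cyp2f2 and the highest for Adgrg2 and Apold1. Without WT 2 the log2 fold changes were -2.86 for Adgrg2, -3.00 for Cyp2f2, -2.71 for Gprc5a, -2.63 for Tmem204 and -1.99 for Apold1. Of the list means of 18 blood cell markers, 6.30 to 6.38 in KrP and 6.36 to 6.61 in WT samples, WT 2 was again the highest, while Ptprc (CD45) stayed at 4.65 ± 0.30 in KrP and 4.85 ± 0.30 in WT samples.

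**Figure D3:**
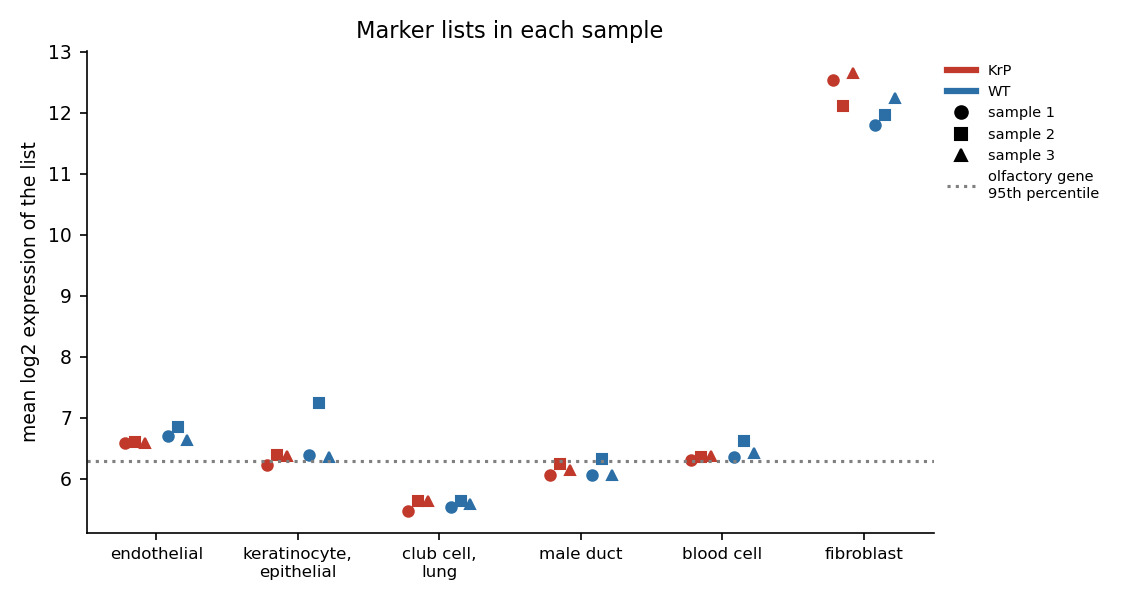
Mean log2 expression of the endothelial, keratinocyte and epithelial, club cell and lung, male duct, blood cell and fibroblast lists in each sample. KrP samples are red (left) and WT samples blue (right), with symbols for the sample number and the olfactory gene guide dotted. Fibroblast markers lay at 12.11 to 12.65 in KrP and 11.79 to 12.24 in WT samples. WT 2 lay at 7.24 for keratinocyte and epithelial markers, above the other 5 samples on that list.

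Within the KrP group the 5 genes did not vary alike. KrP 2 was the highest KrP sample for Adgrg2, Gprc5a, Tmem204 and Apold1 and the lowest for Cyp2f2. Among the 125 genes called lower by at least 2-fold, KrP 2 was the highest KrP sample for 93 and the lowest for 13. Without KrP 2 the log2 fold changes were -3.45 for Adgrg2, -2.42 for Cyp2f2, -2.72 for Gprc5a, -2.85 for Tmem204 and -2.67 for Apold1. Cyp2f2 then moved to place 21 in the order of falls, while Adgrg2 stood at place 2.

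**Figure D4:**
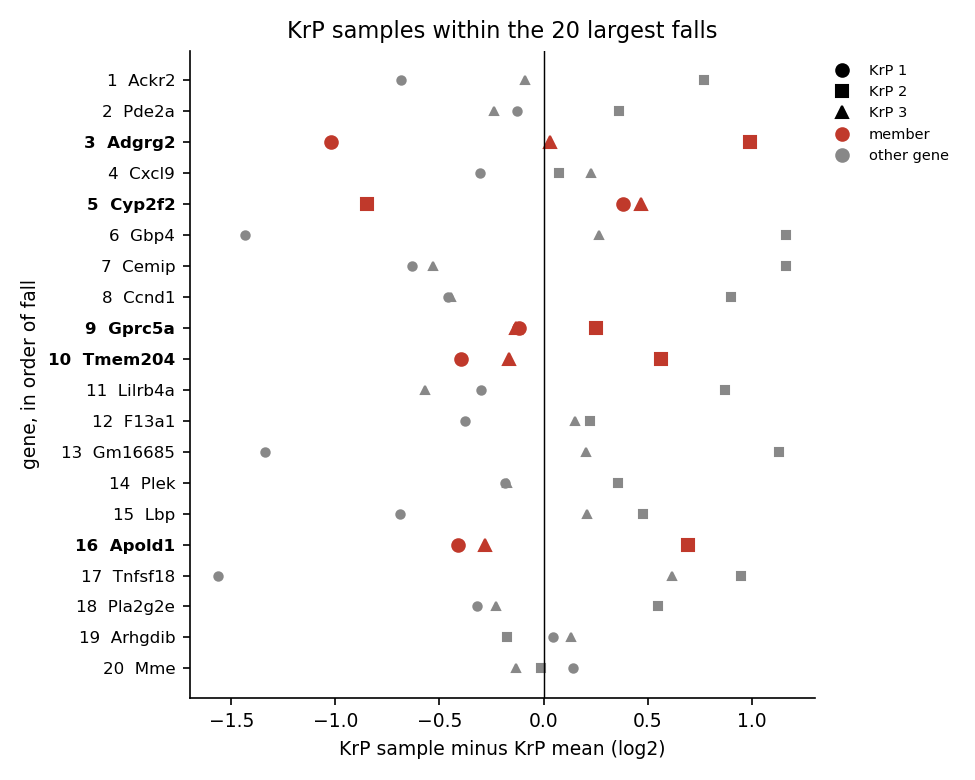
Each KrP sample's log2 value minus the KrP mean of the same gene, for the 20 genes with the largest falls in order, with the 5 members in red. KrP 2 (squares) lies to the right for 4 members, up to 0.99 for Adgrg2, and to the left, at -0.85, for Cyp2f2.

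Likeness between genes was measured as the root-mean-square distance between their log2 values over the 6 samples, after taking off each gene's own mean. By this measure Gprc5a and Tmem204 were each other's next closest gene after Plek (pleckstrin), at a distance of 0.19, and Plek lay 0.12 from Gprc5a and 0.18 from Tmem204. The third closest gene was the phosphodiesterase Pde2a for Gprc5a (0.22) and the clotting factor subunit F13a1 for Tmem204 (0.23). Adgrg2 was closest to the chemokine scavenger Ackr2 (0.24), the guanylate-binding protein Gbp4 (0.28) and the transcript Gm16685 (0.32). Apold1 was closest to the transcript AW112010 (0.20), the inhibitory receptor Lilrb4a (0.23) and the extracellular protein Coch (0.25). Its neighbour on the chromosome, Gprc5a, was farther away, at 0.52. Cyp2f2 had no close match: its nearest genes were Arhgdib (0.54), the chemokine Cxcl9 (0.57) and the peptidase Mme (0.58), and it lay 0.68 to 1.01 from the other 4 members. All 6 samples enter the distance, so a shared difference between the groups counts toward it.

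The falls kept their direction in each of the 15 alternative settings that were run. For the fits that left out a sample this was fixed in advance, since no member had overlapping groups. When each sample was left out in turn, the log2 fold change ran from -3.45 to -2.44 for Adgrg2, from -3.08 to -2.42 for Cyp2f2, from -2.72 to -2.41 for Gprc5a, from -2.85 to -2.37 for Tmem204 and from -2.67 to -1.99 for Apold1. Gprc5a had the narrowest range and Adgrg2 the widest. Differences between same-numbered samples were -3.85, -2.15 and -2.85 for Adgrg2, -2.23, -3.39 and -2.91 for Cyp2f2 and -3.09, -2.12 and -2.57 for Gprc5a. They were -3.18, -1.87 and -2.65 for Tmem204 and -2.52, -2.29 and -2.15 for Apold1.

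**Figure D5:**
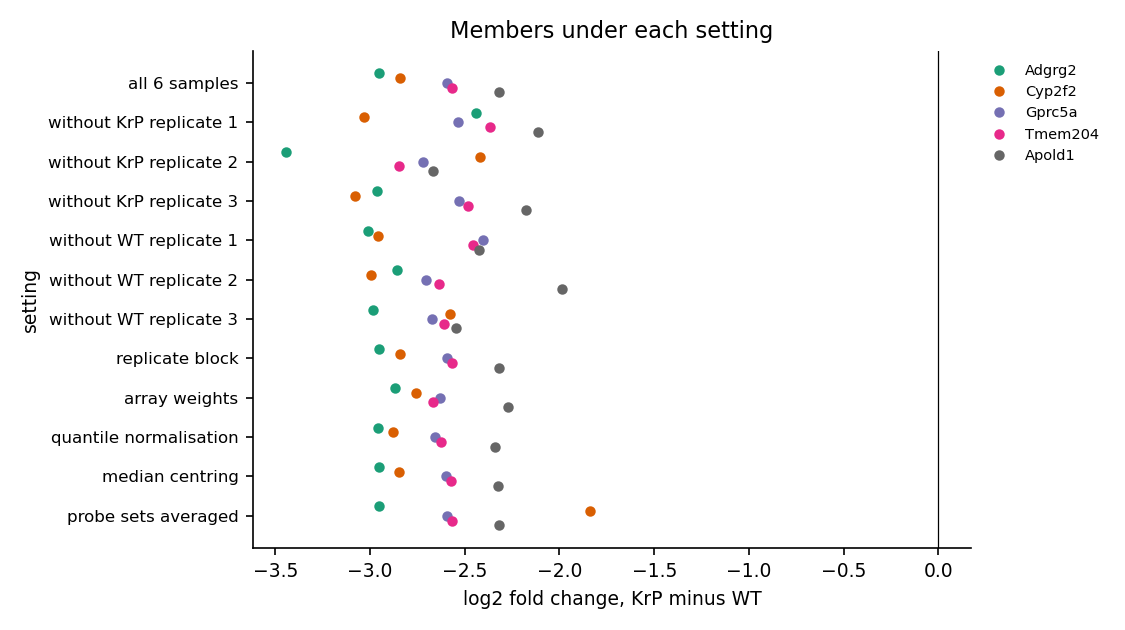
Log2 fold change (KrP minus WT) of the 5 genes with all 6 samples, with each sample left out, and under 5 other settings. All points lie below 0, and the largest single shift is that of Cyp2f2 to -1.84 when its probe sets are averaged.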

How the data were processed

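Sorted dermal fibroblasts were measured on 6 expression arrays, 3 KrP and 3 WT. The deposited table holds log2 values for 34390 probe sets, as the authors computed them. The submitters' processing notes list RMA and Partek without versions. A genome build or filter is not given in the sources used here. Per the labels' protocols, 100 ng of total RNA was labelled with biotin. The array medians were 6.34 to 6.43, so the values were used as deposited. Arrays carry no read depth, and their number limits the precision.

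Of the probe sets, 23521 had 1 gene symbol in the platform annotation, 1814 had several and 9055 had none. By gene ID, 23328 were named through RefSeq (GRCm38.p6, also used for gene order and promoter sequence) and 193 kept their name. For the 1082 genes with more than 1 probe set, the brightest on average over the 6 arrays was used. Closely related genes, such as those of the Cyp2 family, can share probe signal.

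KrP minus WT was fitted across all genes with limma 3.58.1 in R 4.3.3 (lmFit, eBayes with a trend, two-sided, Benjamini-Hochberg adjustment, 3 arrays per group). "Rose" and "fell" mean an adjusted p under 0.05. Same-numbered samples deviated together from their group means, with correlations of 0.414, 0.350 and 0.120 across genes. Pairs of unlike number gave -0.385 to 0.067, so the third pair stood little above them. Fits that block on the replicate number ("with the block") are therefore quoted where a call or count differs. The pairing comes from these correlations, taken from the same values, and not from a label. Up to 3 called genes per list and direction were named, with set defining markers, neighbours and nearest patterns. The members, lists and tests were chosen with earlier results of these data known. The code was tested on simulated data. Figures used matplotlib 3.10.9 in Python 3.11.15.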

Additional observations from a re-analysis of the deposited data

How the results depend on the processing

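Over all genes limma called 483, 255 higher and 228 lower in KrP. With the replicate block it called 1851, 1182 higher and 669 lower, and with array weights 6410, 3759 higher and 2651 lower, where KrP 3 received a weight of 7.91 and the other arrays 0.409 to 2.66. Leaving out 1 sample gave 85 (without KrP 3) to 1116 (without KrP 2) calls, 45 to 682 higher and 40 to 434 lower; the counts were 101 without WT 3, 230 without WT 1, 256 without WT 2 and 321 without KrP 1. The cause of these changes was not tested. Dropping the lower 25% or 50% of genes, no trend, a robust prior, quantile normalisation, median centring and averaged probe sets gave 437 to 548.

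Of the 75 alternative values of the 5 members' log2 fold changes, 74 moved by less than 1 SD of the samples within groups, pooled per gene over KrP and WT (0.278 to 0.720), and 5 by more than the printed SE. The exception was Cyp2f2, at -1.84 with its probe sets averaged, since the dimmer one then enters. Some of the 75 values could not move. Dropping the trend, a robust prior, dropping genes and the replicate block leave a fold change as it is. Averaging cannot move a member with 1 probe set. Of the 15 called genes named from the lists, 15 kept the call with the replicate block and with array weights, 12 with quantile normalisation (Ephx1, Gstp1 and Csf1r lost it), 13 without the trend (Gstp1 and Cdh11 lost it), 14 with a robust prior (Gstp1 lost it) and 1, Ahr, in all 6 fits that left out a sample. With the lower 50% of genes dropped, Rarres1, Tek and Cldn5 were no longer tested and the other 12 kept the call. Without KrP 3 and without WT 3, 1 kept it, without WT 1 and without WT 2, 3, without KrP 1, 8, and without KrP 2, 13. No value of these genes or of the members changed sign in any alternative run. None of them had overlapping groups, so leaving out a sample could not change a sign. Signal near background can compress differences. Adgrg2 in KrP 1 lay next to the olfactory guide, and whether its difference was compressed was not tested.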

Other observations

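Of 18 measured hypoxia response genes, 0 rose and 1 fell (0 and 3 with the replicate block; 0 and 2 without KrP 2). Ndrg1, a stress-responsive gene, had 11.71, 12.40 and 12.14 in KrP samples, against 13.12, 13.33 and 13.25 in WT samples. It fell by 1.15 on the log2 scale (SE 0.16, limma adjusted p = 0.0130), a call that ended without KrP 3 (0.0763), WT 2 (0.0530) or WT 3 (0.0761).

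Of 12 mural and smooth muscle markers, 0 rose and 1 fell (1 and 1 with the block), 4 had a lower mean in KrP and the median log2 fold change was 0.04. The proteoglycan Cspg4, a pericyte marker, fell by 1.10 (SE 0.19, limma adjusted p = 0.0298), a call that ended without KrP 3 (0.148) or any 1 WT sample (0.0704 to 0.137). The gene that rose with the block was Acta2, the smooth muscle actin, with a log2 fold change of 1.31 ± 0.40 (SE; limma adjusted p = 0.154; blocked, 0.0138). Of 18 blood cell markers 1 rose and 0 fell (2 and 1 with the block), while 16 had a lower mean in KrP, against 48.57% of all genes, with a median log2 fold change of -0.15 (13 without WT 2). The gene that rose, the receptor Csf1r, was thus opposite to most of its list. Its log2 fold change was 0.73 ± 0.13 (SE; limma adjusted p = 0.0347), and this call ended without KrP 1 (0.0772), KrP 3 (0.196), WT 1 (0.0957) or WT 3 (0.165) and with quantile normalisation (0.0604). Limma called 0 of 12 melanocyte and Schwann cell markers, 0 of 10 adipocyte markers and 0 of 11 fibroblast markers, with 2, 0 and 5 at an unadjusted p under 0.05. With the block 0, 0 and 3 passed. In the fit without KrP 2 the counts were 1, 0 and 1. These were Mitf (log2 fold change 0.965, limma adjusted p = 0.0368) and Thy1 (0.63, 0.0400), both higher in KrP. Of the 3 lists, 5, 5 and 11 genes lay above the olfactory guide. The 5 fibroblast markers were all higher in KrP, as were 9.44% of all genes. The 3 that passed with the block, Pdgfrb, Col1a1 and Col1a2, rose, as did 5.33% of all genes, and their groups overlapped. Of the 11 fibroblast markers, 2 had a lower mean in KrP. Their median log2 fold change was 0.43, or 0.19 without WT 2.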
